A study of Rattus norvegicus with 12 samples.

Results

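Expression of 10 genes of the NF-κB signalling circuit was followed in rat left ventricle after infarction: the ligand gene Tnf, the subunit genes Nfkb1, Nfkb2, Rela, Relb and Rel, the feedback inhibitor genes Nfkbia and Tnfaip3, and the atypical IκB genes Nfkbiz and Bcl3. They were chosen by gene symbol and were 10 of the 34599 genes in the count table. All 10 were among the 15101 genes with enough counts to be tested, Tnf only through its counts in iCarP+/Light+ rats. RNA-seq of the left ventricle 1 day after surgery covered 12 male SD rats in 3 groups of 4, and the age of 6 weeks comes from the study's description of its patch implantation experiments. Sham rats had a thoracotomy only, and MI rats had their left anterior descending coronary artery ligated and were given no treatment. In iCarP+/Light+ rats, the same ligation was followed after 10 min by injection of Chlorella, a unicellular green alga, into the infarcted wall and by adhesion of the iCarP light-guiding patch to the epicardium with a gel, and the heart was then illuminated for 3 h at 55 mW. Alga, patch, gel and light were all absent from the MI rats, and what each of them contributed cannot be told apart.

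NF-κB transcription factors are dimers of Rel-family subunits. Inhibitory IκB proteins hold them in the cytoplasm until signals such as TNF or interleukin-1 activate the IKK kinase, which marks IκB for destruction and frees the dimer to enter the nucleus. Among the genes then transcribed are those of the inhibitors themselves, of several subunits and of TNF, so that the circuit holds both negative and positive feedback, and in infarcted myocardium it is known for driving cytokine and chemokine expression in resident and infiltrating cells.

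The NF-κB consensus, a motif of 10 bases searched on both strands, was present in 7 of the 9 genes with a RefSeq promoter sequence, counting from 250 bases before the start of the gene to 50 bases after it. Of 18999 promoters of protein-coding genes of the same length, 4.38% held it. A looser form, GGGNNNNNCC, was in 9 of 9 of the genes and in 53.4% of all these promoters. The 100 bases before the start are shown for the 6 genes with a match there and for Rela, which had none, with the bases of each match in capitals. The sequences are from RefSeq, build GRCr8, on the strand of the gene, 5′ to 3′.
Nfkbia: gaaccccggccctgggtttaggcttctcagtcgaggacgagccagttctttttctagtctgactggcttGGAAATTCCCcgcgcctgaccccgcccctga
Tnfaip3: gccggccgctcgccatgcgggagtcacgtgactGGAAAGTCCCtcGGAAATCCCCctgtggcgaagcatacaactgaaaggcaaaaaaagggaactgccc
Nfkbiz: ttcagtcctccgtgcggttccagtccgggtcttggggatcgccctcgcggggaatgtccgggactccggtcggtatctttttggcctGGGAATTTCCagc
Bcl3: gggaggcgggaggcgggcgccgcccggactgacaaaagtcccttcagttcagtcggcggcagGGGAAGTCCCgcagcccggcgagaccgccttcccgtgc
Nfkb2: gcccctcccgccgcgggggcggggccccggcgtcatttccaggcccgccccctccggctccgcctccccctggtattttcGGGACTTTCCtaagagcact
Rel: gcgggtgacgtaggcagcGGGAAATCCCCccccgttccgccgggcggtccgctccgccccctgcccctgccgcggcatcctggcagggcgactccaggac
Rela: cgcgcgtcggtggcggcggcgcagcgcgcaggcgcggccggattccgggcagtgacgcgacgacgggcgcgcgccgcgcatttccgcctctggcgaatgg
The Nfkbia stretch lies at chr6:78597073-78597172 (minus strand), Tnfaip3 at chr1:15543980-15544079 (minus), Nfkbiz at chr11:58251621-58251720 (plus) and Bcl3 at chr1:88613556-88613655 (minus). Nfkb2 lies at chr1:255108274-255108373 (plus), Rel at chr14:101921939-101922038 (minus) and Rela at chr1:212354236-212354335 (plus). Nfkbia and Nfkbiz carried the same 10 bases, GGGAATTTCC, on opposite strands, ending 22 bases and 4 bases before the start, and Nfkb1 carried them from base 4 after the start, outside the stretch shown. Tnfaip3 had 3 matches, of which GGGACTTTCC is shared with Nfkb2 and GGGGATTTCC with Rel, and the farthest began 170 bases before the start. The pair of matches in Rel overlap by all but 1 base. A match is a description of letters, not evidence of binding, and the absence of one in Tnf and Rela says only that these letters are not in this window.

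Against MI rats, all 10 genes were called higher after the iCarP+/Light+ treatment, Tnf from very few counts, while from Sham to MI Rel, Nfkbiz and Bcl3 passed the test in the reported fit. Between MI and iCarP+/Light+ the feedback inhibitor genes Tnfaip3 and Nfkbia rose 11.7-fold and 8.76-fold and the atypical IκB genes Nfkbiz and Bcl3 11.6-fold and 5.03-fold, against 1.49-fold for Rela, the subunit gene with the smallest rise. Values are CPM, read counts put on the same depth in each library by edgeR's TMM factors, and calls are from edgeR's quasi-likelihood test with a threshold of 0.05 on the p adjusted over all 15101 genes. Between MI and iCarP+/Light+, 10 of 10 genes were called higher, where 11.6% of all genes tested were called higher and 2.01% lower. From Sham to MI, 3 of 10 were called higher, beside 30.2% of all genes, and none lower, where 33.6% of all genes were. That count of 3 was 9 when libraries were scaled by total counts alone, where 51.0% of all genes were called higher, 8 when only the 8 Sham and MI rats were fitted, where 34.4% were, and 7 without iCarP+/Light+ rat 5, a rat outside that comparison, where 33.4% were. From Sham to iCarP+/Light+, 10 of 10 were called higher, where 33.5% of all genes were called higher and 33.0% lower. Tnf entered the test only through its iCarP+/Light+ counts, so its calls are no support, and of the other 9 genes 9 were called higher in each comparison with iCarP+/Light+ rats. None of the 10 was called lower in any comparison by edgeR, DESeq2 or limma-voom, and 0 had an unadjusted p below 0.05 in that direction. Without Tnf, the median change on the log2 scale was 0.40, 2.28 and 3.10 in these comparisons in the order Sham to MI, MI to iCarP+/Light+ and Sham to iCarP+/Light+, beside −0.06, 0.01 and 0.02 over all genes. From Sham to iCarP+/Light+ the values ran from 0.41 for Rela (SE 0.11, adjusted p = 0.00520) to 5.69 for Nfkbiz (SE 0.26, adjusted p = 9.64e-09). The 3 comparisons share rats in pairs and are not independent of each other.

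**Figure D1:**
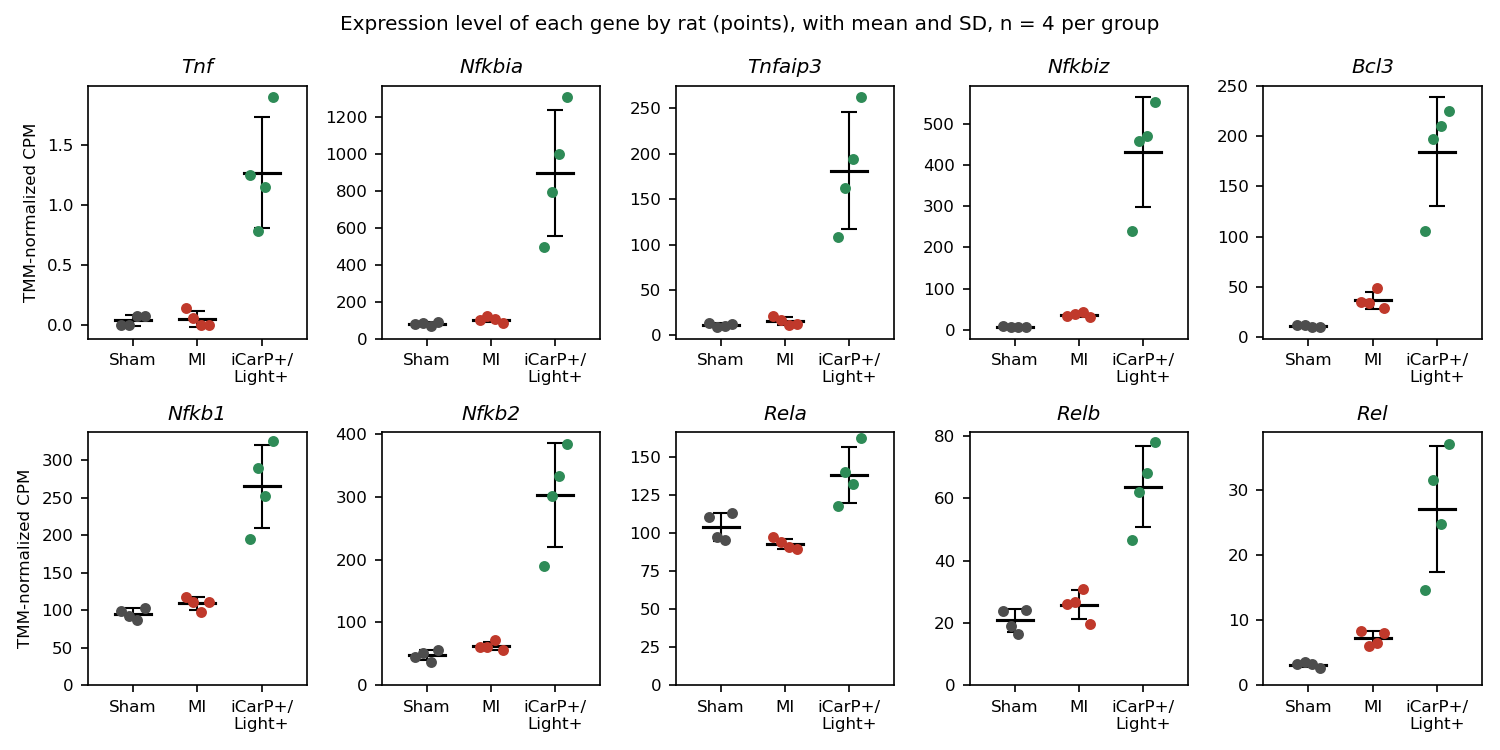
Expression level of the 10 genes in TMM-normalized CPM on linear axes, with 1 point per rat and bars for the mean and SD of 4 rats. In each panel the 4 iCarP+/Light+ rats lie above every MI and Sham rat, and for Nfkbiz, Bcl3, Rel and, narrowly, Nfkb2 the MI rats also lie above every Sham rat.

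Levels of cell type markers differed between the groups. Summed levels of 8 ventricular cardiomyocyte markers ran from 45845 to 50934 CPM in Sham rats, 2970 to 5805 in MI rats and 2337 to 6722 in the iCarP+/Light+ group, so the labelled tissue was recognizable in all groups and its markers were much lower after ligation. Neutrophil markers (S100a8, S100a9, Csf3r, Cxcr2, Mmp8, Lcn2 and Fpr1) summed to 18.6 to 31.5 CPM in Sham rats, 352 to 643 in MI rats and 2594 to 7458 in the iCarP+/Light+ group. From MI to iCarP+/Light+ 7 of 7 were called higher, beside 11.6% of all genes, and none was at 0 in every rat of a group. Pan-leukocyte markers ran from 304 to 446, from 2491 to 3679 and from 4164 to 8294 CPM in the same order. Of these, 7 of 8 were called higher from MI to iCarP+/Light+, beside 11.6% of all genes, and 5 of 8 with total counts alone, beside 7.97%. Monocyte and macrophage markers (428 to 674, 3763 to 6643 and 2828 to 4609 CPM) were called higher in 1 (Adgre1) and lower in 2 (C1qa and Mrc1) of 7 in that comparison, beside 11.6% and 2.01% of all genes. Under total counts alone 5 of 7 were lower, where 30.7% of all genes called were higher. Red blood cell markers (7861 to 10560, 2503 to 6925 and 6181 to 17455 CPM) were called higher in 4 of 5 from MI to iCarP+/Light+, beside 11.6% of all genes. Lymphocyte (13.0 to 18.6, 16.9 to 29.5 and 14.9 to 20.7 CPM), endothelial (1442 to 1645, 649 to 1008 and 879 to 986 CPM), fibroblast (3836 to 4452, 1284 to 1675 and 914 to 1765 CPM) and atrial (2.51 to 59.4, 2.98 to 13.7 and 2.44 to 4.53 CPM, with Sln at 0 in each iCarP+/Light+ rat) marker sums overlapped between MI and iCarP+/Light+ rats. Of these, Cd3e was called lower (−1.25, adjusted p = 0.0426) and Dcn higher (0.73, adjusted p = 0.0374) from MI to iCarP+/Light+. The call of Dcn was lost with DESeq2 size factors and with total counts alone. Under total counts alone 3 of 6 fibroblast and 3 of 7 lymphocyte markers were called lower and none higher. From Sham to MI 5 of 5 endothelial and 5 of 6 fibroblast markers were called lower, beside 33.6% of all genes, and 2 and 4 with total counts alone, where Vwf and Egfl7 changed sign. From MI to iCarP+/Light+ the neutrophil and pan-leukocyte markers thus moved in the same direction as the 10 genes. From Sham to MI both sums rose as well, where 3 of the 10 genes were called higher. The part of these cells in the results was not tested. In bulk tissue, fewer cells of a type and less RNA per cell cannot be told apart. Between 14064414 and 17136958 reads per rat were counted, and mitochondrial genes took 22.8% to 28.9% of them in Sham rats, 8.52% to 11.5% in MI rats and 7.14% to 14.2% in the iCarP+/Light+ group. Scaling by total counts alone, which keeps that difference, moved the median of all genes to 0.52 from Sham to MI and to −0.25 from MI to iCarP+/Light+, and it changed the share of called genes that were higher from 47.3% to 73.5% and from 85.2% to 30.7%, respectively.

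**Figure D2:**
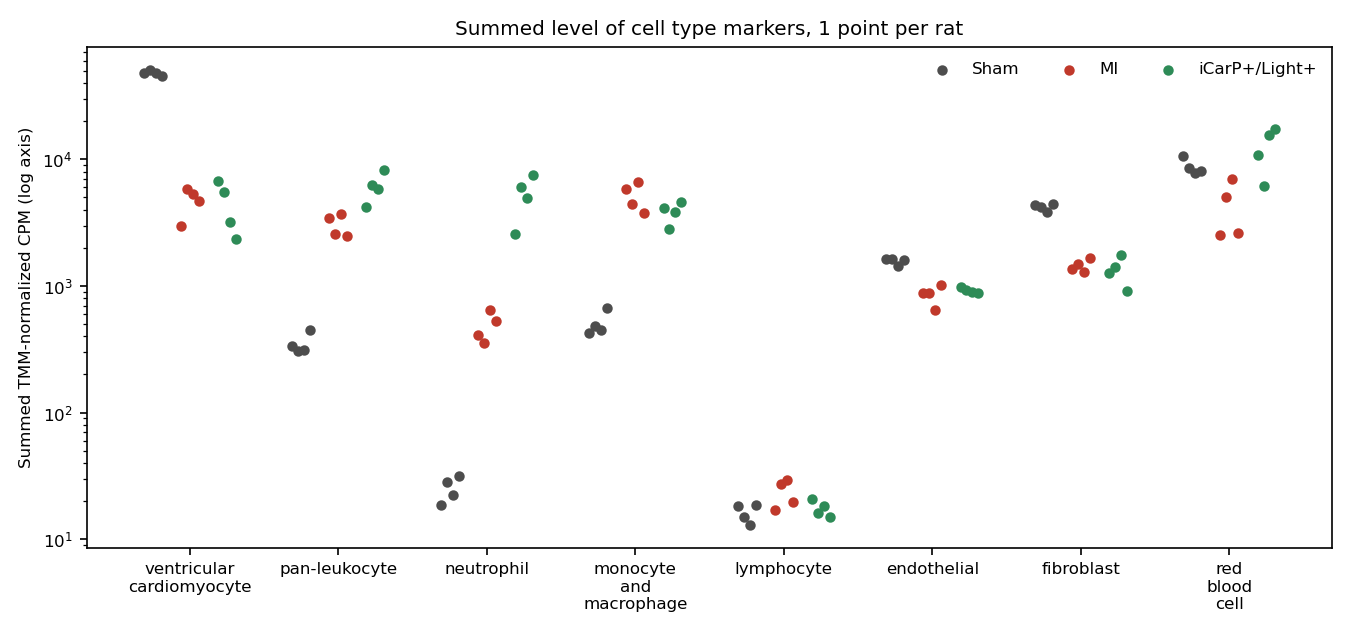
Summed level of each cell type marker list in TMM-normalized CPM (log axis), 1 point per rat in the 3 groups. Neutrophil markers lie at 2594 to 7458 CPM in iCarP+/Light+ rats, above the 352 to 643 CPM of MI rats, whereas the ventricular cardiomyocyte sums of these groups overlap.

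Tnf, which encodes the ligand that switches on the pathway through its cell surface receptors, was barely detected outside the iCarP+/Light+ group. The 4 Sham rats had 0, 0, 1 and 1 counts and the 4 MI rats had 3, 1, 0 and 0, all at or below the 3 counts (0.144 to 0.228 CPM in these libraries) taken as the floor for a single library. The 4 iCarP+/Light+ rats had 20, 13, 17 and 27 counts, or 1.25, 0.786, 1.15 and 1.90 CPM. Every iCarP+/Light+ rat thus lay above every other rat, while a difference between Sham and MI was not detectable at this depth. Summed over rats, 77 counts in iCarP+/Light+ against 4 in MI give a ratio of 23.8 per scaled read (95% interval 8.94 to 89.6), and against 2 in Sham a ratio of 34.6 (95% interval 9.25 to 290.6). These intervals cover counting error only. MI rat 1 held 3 of the 4 MI counts. Tnf (ENSRNOG00000055156) lies at chr20:5189390-5192000 on the minus strand of rn6, the build of the count table, and as for the other 9 genes no other annotated gene overlaps it.

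Genes acting around the ligand rose as well. From a list of 6 genes for TNF-family ligands, processing factors and receptors, 5 could be tested and all 5 were called higher both from Sham to MI, beside 30.2% of all genes, and from MI to iCarP+/Light+, beside 11.6%. Tnfrsf1b, the inducible TNF receptor carried mainly by leukocytes and endothelium, went from 29.8 ± 7.89 in Sham rats to 92.8 ± 13.1 in MI rats and 778.8 ± 290.4 CPM in the iCarP+/Light+ group (SD, n = 4), a rise of 3.07 on the log2 scale from MI (SE 0.29, adjusted p = 2.18e-05). Ltb, the gene of lymphotoxin beta, rose by 2.03 from Sham to MI and 2.47 from MI to iCarP+/Light+, and Rhbdf2, whose product helps the TNF-shedding protease ADAM17 reach the cell surface, by 1.43 and 1.72. Tnfrsf1a, the broadly expressed receptor, rose by 1.13 and 0.64, and Adam17 by 0.65 and 0.77, so these genes had the smallest rises of the list in both comparisons.

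Of the feedback inhibitor genes, Nfkbia encodes IκBα, the classical inhibitor that captures NF-κB dimers and is itself an early NF-κB target. Its level was 76.0, 82.5, 68.0 and 88.0 CPM in the Sham rats and 98.9, 120.2, 106.4 and 84.8 CPM in the MI rats, and it was 493.4, 795.5, 997.7 and 1307 CPM in the iCarP+/Light+ rats. Sham and MI overlapped through 1 MI rat, whereas the lowest iCarP+/Light+ rat, at 493.4 CPM, stood far above the highest MI rat, at 120.2 CPM. On the log2 scale the change was 0.38 from Sham to MI (SE 0.23, adjusted p = 0.169) and 3.13 from MI to iCarP+/Light+ (SE 0.25, adjusted p = 5.96e-06), the latter 196th from the top among 15101 genes. Nfkbia (ENSRNOG00000007390) lies at chr6:76267228-76270457 on the minus strand.

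Tnfaip3 encodes A20, a ubiquitin-editing enzyme that dismantles the signalling complex upstream of IKK. Sham rats had 13.1, 9.15, 10.5 and 12.5 CPM, MI rats 20.9, 17.4, 11.0 and 12.6 CPM, and iCarP+/Light+ rats 107.9, 162.0, 194.1 and 262.1 CPM. MI rats overlapped the Sham range in part, and the iCarP+/Light+ rats stood clear of both groups. The change was 0.45 from Sham to MI (SE 0.26, adjusted p = 0.151) and 3.55 from MI to iCarP+/Light+ (SE 0.28, adjusted p = 4.93e-06) on the log2 scale. The gene (ENSRNOG00000049517) lies at chr1:14402913-14412807 on the minus strand.

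Nfkbiz and Bcl3 encode nuclear IκB proteins, which act on promoters with p50 or p52 homodimers rather than as cytoplasmic inhibitors. Nfkbiz was at 10.1, 7.03, 8.27 and 7.89 CPM in Sham rats, at 33.7, 39.5, 43.1 and 32.2 CPM in MI rats and at 240.4, 457.3, 469.3 and 552.5 CPM in the iCarP+/Light+ group. The groups formed 3 separate steps with no overlap between any pair of them. It rose by 2.16 from Sham to MI (SE 0.23, adjusted p = 3.77e-06) and by 3.53 from MI to iCarP+/Light+ (SE 0.23, adjusted p = 1.77e-06), so that iCarP+/Light+ rats exceeded Sham rats 51.6-fold. No other of the 10 genes had a larger fitted change from Sham to iCarP+/Light+.

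Bcl3 was at 11.9, 11.9, 10.1 and 10.6 CPM in Sham and at 35.4, 33.6, 48.8 and 29.2 CPM in MI rats, and it reached 105.7, 197.0, 210.7 and 225.3 CPM in iCarP+/Light+ rats. It formed the same 3 steps, with iCarP+/Light+ rat 1 far below its 3 companions yet above every MI rat. The change was 1.72 from Sham to MI (SE 0.23, adjusted p = 2.15e-05) and 2.33 from MI to iCarP+/Light+ (SE 0.22, adjusted p = 2.25e-05). Nfkbiz (ENSRNOG00000031163) lies at chr11:47243342-47271487 on the plus strand and Bcl3 (ENSRNOG00000043416) at chr1:80730499-80744831 on the minus strand.

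**Figure D3:**
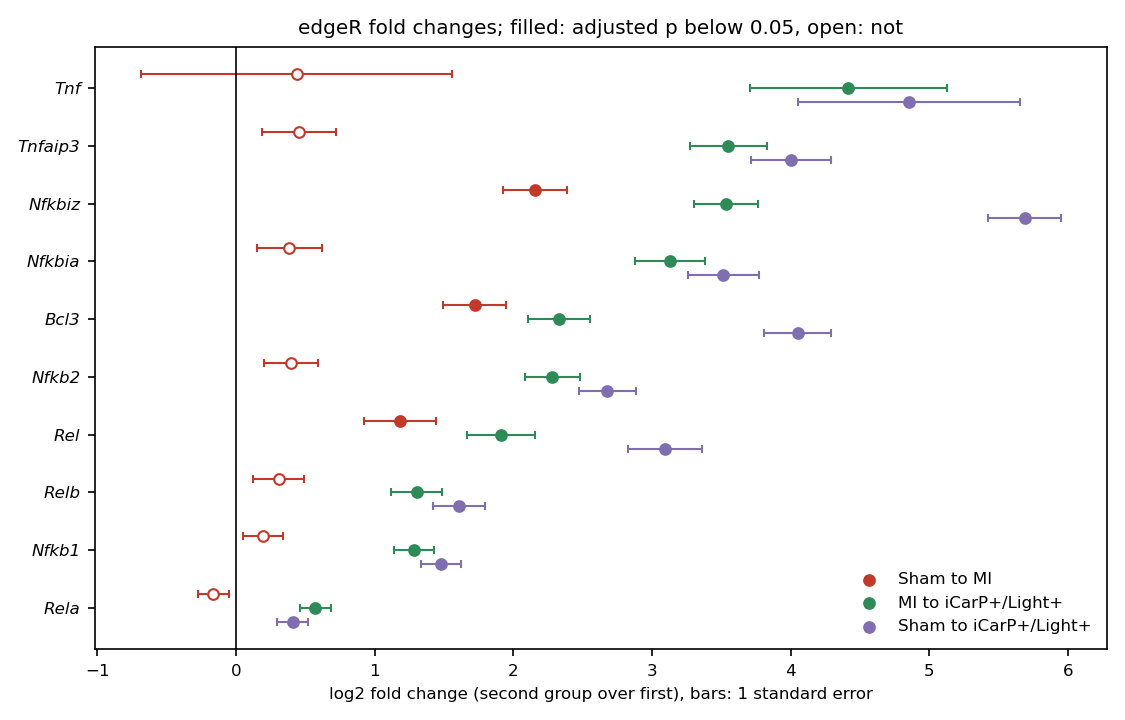
Log2 fold change of each of the 10 genes in the 3 comparisons (edgeR), with bars of 1 standard error, filled points for an adjusted p below 0.05 and open points otherwise, ordered by the change from MI to iCarP+/Light+. Only Nfkbiz, Bcl3 and Rel have a filled point for Sham to MI, and Rela has the smallest change from MI to iCarP+/Light+, 0.57. The points for Tnf are fitted to 4 counts or fewer in Sham and in MI and give no measured size.

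Among the subunits, Rela encodes p65, the main transactivating partner of the classical dimer, and it had the smallest change from MI to iCarP+/Light+. Sham rats had 110.7, 97.2, 95.3 and 112.8 CPM, MI rats 97.3, 94.0, 90.8 and 89.6 CPM, and iCarP+/Light+ rats 117.8, 140.0, 132.4 and 162.5 CPM. MI rats overlapped the lower end of Sham, and the iCarP+/Light+ rats lay above both by a narrow margin. The log2 fold change from Sham to MI was −0.16 (SE 0.11, adjusted p = 0.214), but with total counts alone its sign turned, to 0.42 (adjusted p = 0.00301), below the median of all genes under that scaling. From MI to iCarP+/Light+ it was 0.57 (SE 0.11, adjusted p = 0.00353), and with total counts alone 0.30 (adjusted p = 0.0511), which is 0.55 above the median of all genes. Rela (ENSRNOG00000030888) lies at chr1:220992770-221003249 on the plus strand.

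Nfkb1 and Nfkb2 encode the precursors p105 and p100, which hold dimers back like IκB proteins until they are processed to the DNA-binding subunits p50 and p52. Nfkb1 was at 98.6, 92.2, 86.5 and 103.3 CPM in Sham rats, 117.3, 111.4, 97.1 and 110.6 CPM in MI rats and 194.8, 289.4, 251.7 and 324.9 CPM in the iCarP+/Light+ group. The Sham and MI ranges overlapped, with a log2 fold change of 0.20 (SE 0.14, adjusted p = 0.246), and the iCarP+/Light+ rats lay above both, with 1.28 from MI (SE 0.14, adjusted p = 7.02e-05). Nfkb2 was at 45.2, 51.7, 37.0 and 55.1 CPM in Sham rats, 60.1, 61.2, 71.4 and 56.0 CPM in MI rats and 189.3, 302.2, 333.6 and 384.9 CPM in the iCarP+/Light+ group. Every MI rat exceeded every Sham rat, by less than 1 CPM at the closest, and the change of 0.40 (SE 0.19, adjusted p = 0.0909) did not pass the test. It did pass in 4 of 10 alternatives, DESeq2 among them (0.47, adjusted p = 0.0404), and ran from 0.38 to 0.97 over them. From MI to iCarP+/Light+ Nfkb2 rose by 2.28 (SE 0.20, adjusted p = 1.21e-05). Nfkb1 (ENSRNOG00000023258) lies at chr2:240773456-240866689 on the minus strand and Nfkb2 (ENSRNOG00000019311) at chr1:266053002-266059256 on the plus strand.

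Relb encodes the partner of p52 in the non-canonical arm of the pathway, and Rel encodes c-Rel, best known from lymphoid and myeloid cells. Relb was at 23.8, 19.0, 16.5 and 24.2 CPM in Sham rats, 26.2, 26.8, 30.9 and 19.6 CPM in MI rats and 46.8, 62.2, 68.1 and 78.1 CPM in the iCarP+/Light+ group. Sham and MI overlapped, with 0.31 on the log2 scale (SE 0.18, adjusted p = 0.159), and the rise from MI was 1.30 (SE 0.18, adjusted p = 3.70e-04). Rel, the least expressed subunit gene per length, was at 3.25, 3.55, 3.19 and 2.65 CPM in Sham rats, 8.28, 5.99, 6.43 and 8.03 CPM in MI rats and 14.7, 31.7, 24.9 and 37.2 CPM in the iCarP+/Light+ group. Its groups did not overlap, with rises of 1.18 from Sham to MI (SE 0.26, adjusted p = 0.00132) and 1.91 from MI to iCarP+/Light+ (SE 0.25, adjusted p = 1.82e-04). It was the one subunit gene of 5 called from Sham to MI in the reported fit, beside 30.2% of all genes called higher. DESeq2 called 2 (Rel and Nfkb2), beside 33.3% of all genes, and total counts alone all 5, beside 51.0%. Relb (ENSRNOG00000033235) lies at chr1:80517411-80544825 and Rel (ENSRNOG00000054437) at chr14:108491069-108509892, both on the minus strand.

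The makeup of the subunit mRNAs differed between the groups. Per length, in CPM per kb of the gene length listed by the authors, the 5 subunit genes summed to 95.1 ± 9.16 in Sham rats, 103.8 ± 4.10 in MI rats and 271.7 ± 59.6 in the iCarP+/Light+ group (SD, n = 4). Rela took 44.8% ± 1.54 of that sum in Sham rats, 36.6% ± 0.869 in MI rats and 21.2% ± 2.59 in the iCarP+/Light+ group, with no overlap between the groups. Nfkb2 took 16.1% ± 1.86, 19.5% ± 1.82 and 35.9% ± 3.08, and it was the leading subunit gene in each iCarP+/Light+ rat, where Rela led in each Sham and MI rat. The share of Nfkb1 stayed between 23.5% and 29.2% and that of Relb between 10.1% and 15.1% across the 12 rats, and Rel went from 1.90% ± 0.347 to 3.92% ± 0.670 and 5.50% ± 0.991.

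**Figure D4:**
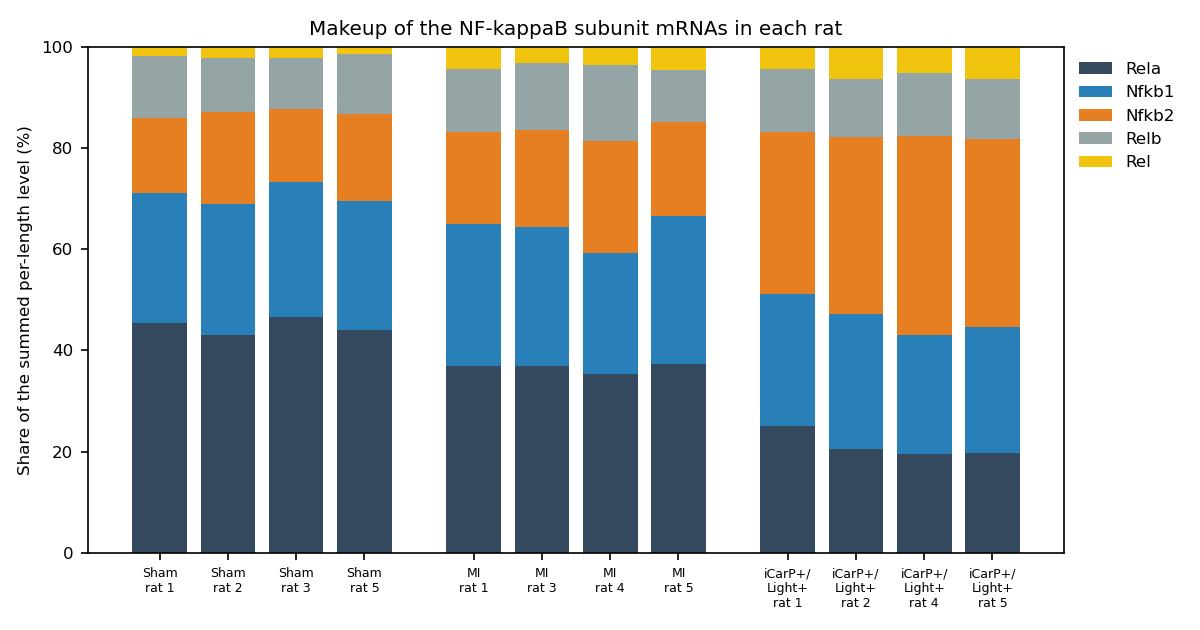
Share of each of the 5 subunit genes in their summed per-length level (%), 1 bar per rat. Rela takes 43.1% to 46.6% in Sham rats, 35.4% to 37.4% in MI rats and 19.6% to 25.0% in the iCarP+/Light+ group, where Nfkb2 takes 32.0% to 39.2%.

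The mRNA of the feedback inhibitor and atypical IκB genes per Rela mRNA, again per length, gave a view that does not depend on library scaling. Nfkbia stood at 1.18 ± 0.113 times Rela in Sham rats, 1.72 ± 0.234 in MI rats and 9.93 ± 2.76 in the iCarP+/Light+ group (SD, n = 4), with no overlap between any of the groups. Tnfaip3 went from 0.108 ± 0.0101 to 0.165 ± 0.0422 and 1.29 ± 0.312, Nfkbiz from 0.0483 ± 0.00639 to 0.241 ± 0.0357 and 1.85 ± 0.416, and Bcl3 from 0.139 ± 0.0149 to 0.513 ± 0.124 and 1.71 ± 0.385. All 3 of these genes were below Rela in Sham and MI rats, and in iCarP+/Light+ rats their mean ratios were above 1.

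The order of the per-length levels differed between groups. In Sham rats it ran Nfkbia (50.3 ± 5.50 CPM per kb), Rela (42.6 ± 3.70), Nfkb1 (24.6 ± 1.91), Nfkb2 (15.4 ± 2.60), Relb (10.7 ± 1.91), Bcl3 (5.90 ± 0.487), Tnfaip3 (4.62 ± 0.747), Nfkbiz (2.06 ± 0.321), Rel (1.79 ± 0.211) and Tnf. The ranges of the neighbours Nfkbia and Rela, Nfkb2 and Relb, and Nfkbiz and Rel overlapped, although Nfkbia was above Rela and Nfkb2 above Relb within each Sham rat. In MI rats Bcl3 (19.5 ± 4.48) moved up beside Nfkb2 (20.3 ± 2.14) and Nfkbiz (9.16 ± 1.25) above Tnfaip3 (6.33 ± 1.84), both pairs with overlapping ranges. In iCarP+/Light+ rats Nfkbia stood far ahead at 574.0 ± 218.6 CPM per kb, and Nfkbiz (106.1 ± 32.9), Nfkb2 (98.5 ± 27.0), Bcl3 (98.0 ± 28.6), Tnfaip3 (74.3 ± 26.3), Nfkb1 (68.6 ± 14.4) and Rela (56.6 ± 7.63) followed with each range overlapping the next. Relb (32.7 ± 6.73) and Rel (15.3 ± 5.49) came below them, and Tnf (0.758 ± 0.276) last.

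The iCarP+/Light+ rats differed among themselves in a shared way. Rat 5 was the highest of the 4 in 10 of 10 genes, and rat 1 the lowest in 9 of 10, Tnf being lowest in rat 2. The neutrophil marker sum followed the same extremes, with 2594 CPM in rat 1, 5995 in rat 2, 4989 in rat 4 and 7458 in rat 5, and the pan-leukocyte sum was 4164, 6309, 5843 and 8294 CPM. The ventricular cardiomyocyte sum ran the other way, with 6722, 5562, 3170 and 2337 CPM in the same order of rats, and so did the mitochondrial share of counts, with 14.2%, 12.1%, 7.89% and 7.14%. The part of these cells and of the mitochondrial share in the spread was not tested. From MI to iCarP+/Light+ each of the 10 genes was called higher in all 12 fits that left out 1 rat, with the largest adjusted p, 0.0267, for Rela. Over all genes, 7.31% to 13.4% were called higher in these fits. Tnf entered the test only through its iCarP+/Light+ counts, so its calls are no support.

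The remaining genes of the pathway were taken from 5 lists of 69 genes in all, chosen for their textbook roles, of which 65 could be tested. Of these, 63 also passed the filter on low counts in Sham and MI rats alone, and Csf3 and Ccl20 did not, so a call of either against iCarP+/Light+ rats is no support. From Sham to MI 35 of the 65 were called higher and 9 lower (33 and 9 of the 63), beside 30.2% and 33.6% of all genes. Of the 63, 34 were called higher and 3 lower from MI to iCarP+/Light+, beside 11.6% and 2.01% of all genes, and from Sham to iCarP+/Light+ 48 and 5, beside 33.5% and 33.0%.

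**Figure D5:**
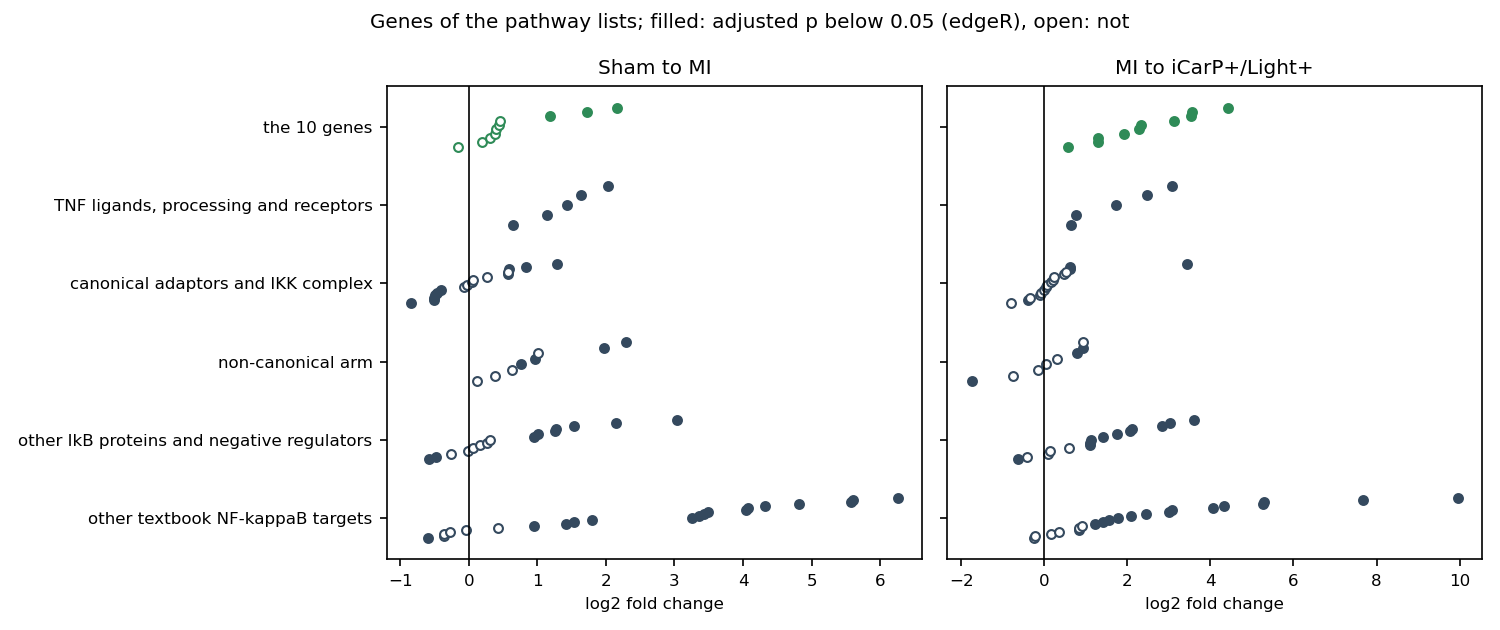
Log2 fold change (edgeR) of each tested gene in the 5 pathway lists and of the 10 genes, from Sham to MI (left) and from MI to iCarP+/Light+ (right), with filled points where the adjusted p was below 0.05. In the right panel most adaptor and IKK genes lie near 0, with Birc3 at 3.44 apart from the rest, while the targets reach 7.67 (Cxcl2). The point for Csf3 at 9.95 is fitted to 16 counts in MI rats and is no support.

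Adaptor and IKK genes, which carry the signal from the receptor to IκB, numbered 16 among those tested. From MI to iCarP+/Light+ 3 of 16 were called higher and 1 lower, where 11.6% and 2.01% of all genes were, and with total counts alone 2 were higher and 3 lower. Birc3, which encodes the ubiquitin ligase cIAP2 and is itself a known target, rose from 17.2 ± 4.32 to 186.5 ± 55.8 CPM, by 3.44 (SE 0.28, adjusted p = 7.48e-06), against 0.63 for its relative Birc2 and 0.62 for the TAK1 partner Tab2. Tab1 fell by 0.40 (SE 0.11, adjusted p = 0.0251). The kinase genes of the IKK complex gave log2 fold changes of 0.20 for Chuk (adjusted p = 0.221) and 0.07 for Ikbkb (adjusted p = 0.782), and its regulatory subunit Ikbkg gave 0.47 (adjusted p = 0.202), none of which passed the test. From Sham to MI 4 of 16 were called higher, beside 30.2% of all genes, namely Tradd (1.28) and Ripk1 (0.83), which bind the TNF receptor complex, Ikbkb (0.58) and Ikbkg (0.57). Another 6 were called lower, beside 33.6% of all genes, led by Rbck1 (−0.84), a linear ubiquitin ligase subunit. With total counts alone 8 were higher and none lower, Rbck1 lost its call, and the other 5 (Traf5, Birc2, Tab1, Rnf31 and Sharpin) changed sign.

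In the non-canonical arm, which processes p100 through the kinase NIK, 4 of 8 genes tested were called higher from Sham to MI, beside 30.2% of all genes, and 7 of 8 with total counts alone, beside 51.0%. The 4 were Map3k14, the gene of NIK (0.96, SE 0.17, adjusted p = 3.31e-04), Ltbr (0.76), Tnfsf14 (1.97) and Tnfrsf11a, the gene of the receptor RANK (2.29). From MI to iCarP+/Light+ 2 were called higher, Traf3 (0.92) and Cd40 (0.79), where 11.6% of all genes were. Tnfrsf11a went the other way, from 38.0 ± 9.23 in MI to 11.3 ± 1.75 CPM in iCarP+/Light+ rats, and fell by 1.75 (SE 0.18, adjusted p = 4.15e-05), with 4 of 4 rats below every MI rat.

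Of 15 other IκB proteins and negative regulators, 10 were called higher and 1 lower from MI to iCarP+/Light+, beside 11.6% and 2.01% of all genes. From Sham to MI 7 were higher and 2 lower (Commd1 at −0.58 and N4bp1 at −0.47), beside 30.2% and 33.6%. With total counts alone 12 were higher, beside 51.0% of all genes, and none lower. Commd1 lost its call there and N4bp1 changed sign. Nfkbid, a further nuclear IκB gene, was at 0.901 ± 0.154 in Sham rats, 4.03 ± 1.04 in MI rats and 49.3 ± 15.7 CPM in the iCarP+/Light+ group, rising by 3.61 from MI (SE 0.26, adjusted p = 3.48e-06). Zc3h12a, whose product Regnase-1 degrades cytokine mRNAs, rose by 3.04, and Tnip1, which encodes an A20-binding partner, by 2.83. Otulin, the deubiquitinase of linear chains, fell by 0.64 (SE 0.19, adjusted p = 0.0418). From Sham to MI Nfkbid rose by 2.15 and Nfkbie, the gene of IκBε, by 1.54, and Tnip3 was called higher at 0.144 ± 0.0578 in Sham and 1.24 ± 0.693 CPM in MI rats, from 8 and 96 counts over the 4 rats of each group.

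Among other textbook targets, 15 of 21 (13 of 19 without Csf3 and Ccl20) were called higher and 1 lower (Sod2, −0.60) from Sham to MI, beside 30.2% and 33.6% of all genes. With total counts alone 17 of 21 were higher, beside 51.0% of all genes, and Sod2 lost its call. Leaving out Csf3 and Ccl20, 14 of 19 were called higher from MI to iCarP+/Light+, beside 11.6% of all genes, Sod2 among them (3.07). Csf3, the gene of the neutrophil growth factor G-CSF, had 0 counts in the Sham rats, 16 over the 4 MI rats (0.215 ± 0.279 CPM) and 13285 over the 4 iCarP+/Light+ rats (216.8 ± 22.3 CPM), and like Tnf it passed the filter on low counts only through the last group. Cxcl2, a neutrophil attractant, went from 0.240 ± 0.158 in Sham rats to 11.6 ± 5.94 in MI rats and 2359 ± 798 CPM in the iCarP+/Light+ group, with a rise of 7.67 from MI, and Il1b rose by 5.30 from MI. The monocyte attractant Ccl2 rose by 5.61 from Sham to MI and by a further 0.83 from MI to iCarP+/Light+ (SE 0.22, adjusted p = 0.0219). Il6 was called higher from Sham to MI, with 4 counts over the Sham rats, all in 1 of them, and 462 over the MI rats (6.13 ± 3.67 CPM).

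For each of the 10 genes, the protein-coding genes whose level followed it most closely over the 12 rats were found by the root-mean-square difference between centred log2 CPM among 13650 candidates. Nfkbia was followed by Ell (0.14), Zc3h12a (0.21) and Tnip1 (0.22), and Ell was also nearest to Tnfaip3 (0.32), before Pim1 and Arrdc3. Relb was followed by Nfe2l2 (0.12), Nfkbib (0.12) and Ppp1r15a (0.15), and Bcl3 by Srgn (0.14), Nfil3 (0.15) and Nfe2 (0.25). Nearest to Nfkbiz were Mxd1 (0.31), Nfkbid (0.32) and Slc2a1 (0.32), and to Nfkb2 were Ets2 (0.17), Ralgds (0.23) and Rlf (0.24). Rel was followed by Vasp, Ptpn1 and Serinc2, Nfkb1 by Rhbdd1, Rundc1 and Rnf144b, and Rela by Dazap2, Mafk and Golph3. The nearest to Tnf, Plscr1, Gk and Cd55, lay at 0.41 or more, a looser likeness. These distances are descriptions over rats that share groups and libraries.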

How the data were processed

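The authors deposited raw, unnormalized read counts of each gene in each rat. The submitters' processing notes name HISAT2, featureCounts and build rn6, and versions, strand setting and annotation release are not given in the sources used here. The test was edgeR 4.0.16 in R 4.3.3. After filterByExpr with the 3 groups (minimum count 10), 15101 genes were kept and scaled by TMM. The quasi-likelihood fit used all 12 rats and the 3 group means, p-values were adjusted by Benjamini-Hochberg over every gene kept, and a call needed an adjusted p below 0.05. Fold changes have the second group over the first. CPM values are TMM-normalized, and means are given with the SD. P-values weigh the difference between group means against the spread between rats within groups. The 18 pairs of rats within a group differed by a chi-square of 14.1 to 114 per gene, where counting noise gives 1, so each was counted as its own sample.

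The 10 genes and the lists were chosen with earlier results of these data known. In the text, up to 3 genes of each pathway list were named for the largest absolute log2 fold change among those called in Sham to MI and in MI to iCarP+/Light+. Tnfrsf1a, Adam17, Chuk, Ikbkb, Ikbkg, Tab1, Ltbr, Otulin, Commd1, N4bp1, Sod2, Adgre1, C1qa, Mrc1, Sln, Cd3e, Dcn, Traf5, Rnf31, Sharpin, Ccl20, Vwf, Egfl7 and the change of Ccl2 from MI to iCarP+/Light+ were named after their values were seen. Likeness was measured with a prior count of 2. Nos2, Ccr2, Cd79a and Pecam1 were listed and not analysed here. 1 of the neutrophil markers first listed is not reported here. Promoter sequences come from RefSeq (GRCr8), whose coordinates are not those of rn6.

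Replicate numbers come from the titles of the samples, and a number shared between groups names different animals, for which reason the reported fit has no block, and one was tried as an alternative. The labels name no batch, so a batch and the group cannot be told apart. Libraries from unilluminated (iCarP+/Light-) rats were not analysed here. Alternatives were DESeq2 size factors, total counts alone, DESeq2 1.42.0, limma-voom (limma 3.58.1), other filters, protein-coding genes alone, leaving out mitochondrial genes, only the rats compared, a replicate block, a fold change of 2 or more, and each rat left out in turn. In 3 simulations of MI to iCarP+/Light+ with 200 of 15101 genes changed in each, edgeR recovered 55.7% of the genes changed by log2 1 and 84.3% of those changed by log2 2, and 4.28% of its calls were false. DESeq2 recovered 68.4% and 89.9% with 18.1% false calls, and limma-voom recovered 54.6% and 81.8% with 3.72% of calls false. In the data, 2051 genes were called in this comparison, 85.2% of them higher. The share of false calls with that many genes called, mostly in 1 direction, was not tested. Figures used matplotlib 3.10.9.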

Additional observations from a re-analysis of the deposited data

How the results depend on the processing

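The 10 genes were called higher from Sham to iCarP+/Light+ under each alternative that gave a value, and likewise from MI to iCarP+/Light+, apart from Rela with total counts alone (0.30, adjusted p = 0.0511 from MI) and where a fold change of 2 or more was required (1.49-fold from MI and 1.33-fold from Sham), which left 9 of 10 in both. The count of the 10 genes called higher from Sham to MI, 3, was 9 with total counts alone, where 51.0% of all genes were called higher, and 8 with only the 8 rats compared, where 34.4% were, and it ran from 3 to 7 when 1 rat was left out, with 7 without iCarP+/Light+ replicate 5. The direction from Sham to MI turned for Rela with total counts alone (0.42) and for Tnf with limma-voom (−0.16) and without MI replicate 1 (−0.76, in a leave-one-out range of −0.76 to 0.92), and the cause was not tested. Of the pathway list genes, 44 were called from Sham to MI and 27 of them changed at least 2-fold. Over all genes, 2051 were called from MI to iCarP+/Light+, against 3926 with total counts alone and 1298 with the replicate number as a replicate block. Under the replicate block, 10 of the 10 genes were called higher from MI to iCarP+/Light+, where 7.66% of all genes were. Tnf again gives no support there. When Sham was compared with MI, 3 of the 10 were called higher under that block, where 27.2% of all genes were. Rats with the same number did not deviate together (correlations of −0.15 to 0.065), so the numbers were not taken to pair them. Tnf could not be tested with at least 10 counts in every sample, nor from Sham to MI in the 8 rats of those groups. Depth limits Tnf in Sham and MI rats, where single libraries held 0 to 3 counts.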
